A study of Mus musculus with 12 samples.

Results

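Cells of the mouse colon carcinoma line MC38 that had been under the MEK inhibitor GDC-0623 for 72 h were compared with cells that had been under it for 24 h. The members were chosen by treatment label and period: 3 arrays of 24 h GDC-0623 and 3 arrays of 72 h GDC-0623, 6 of the 12 arrays of the series. Both groups carried the same treatment, GDC-0623 at a final concentration of 100 nM added to a monolayer on the day after seeding, and differed in time alone. The other 6 arrays, 3 at 24 h and 3 at 72 h in the solvent DMSO, served as the culture-time background, since cells in a dish change with time without any drug. RNA was total RNA from cell pellets on a 3′ expression array. A line is 1 cell population without stroma, immune cells or vessels. The replicates are numbered in the labels, and nothing there states whether they came from separate thawed cultures, so p-values measure the spread between these arrays, and 3 arrays a group limit the precision.

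MEK is the kinase that phosphorylates ERK, the last kinase of the RAS-RAF-MEK-ERK cascade. Active ERK switches on immediate early transcription factors within minutes and, through them and through ETS factors, a set of feedback inhibitors (the DUSP phosphatases and the Sprouty proteins) that switch the cascade off again. When MEK is blocked these feedback inhibitors are lost too, so cells held under a MEK inhibitor may regain part of their ERK output with time. Type I interferon induces the interferon-stimulated genes, which encode antiviral proteins, and interferon-gamma induces the guanylate-binding proteins and immunity-related GTPases of cell-autonomous defence.

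Levels are log2 RMA values, so a difference of 1 is a doubling, and values from about 3 to 5 are in the range where a probe set cannot be told from background. A change from that range is compressed. Where the lower group of a rise had a mean under 5, the rise is therefore also given as a lower bound, measured from a level of 5, and where the DMSO levels were under 5 the change in DMSO that a difference is set against could not be measured well. Of 18193 genes, each read through 1 probe set, 1054 rose between 24 h and 72 h under GDC-0623 (5.79% of genes, adjusted p under 0.05, limma with Benjamini-Hochberg adjustment over all probe sets) and 565 fell (3.11%). In DMSO 1530 rose (8.41%) and 935 fell (5.14%). The rises under the drug were the larger ones: 273 genes rose at least 2-fold under GDC-0623 against 133 in DMSO, 76 rose at least 4-fold against 12, and only 13 of the 565 falls reached 2-fold. The fall count moved with the fit: with the replicate number as a block it was 923, with each array shifted by its hybridization controls the split was 811 higher to 1621 lower, and without 24 h GDC-0623 replicate 2 it was 85. That shift moved the median of all genes by -0.11, and without 24 h GDC-0623 replicates 2 or 3 the rise count was 502 or 545.

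The change with time was tested against that in DMSO directly, as the difference of the time changes over all 12 arrays. In that test 295 genes (1.62%) moved further up, or less far down, under the drug than in DMSO, and 266 (1.46%) moved the other way. Of the 1054 genes that rose under GDC-0623, 544 (51.6%) also rose in DMSO, which is 35.6% of the DMSO rises; 257 (24.4%) had a significantly larger change than in DMSO. Of the 565 falls, 197 (34.9%) were shared with DMSO, which is 21.1% of the DMSO falls, and 60 (10.6%) were significantly deeper than in DMSO. For most of the genes that moved under the drug, a difference from culture time was therefore not shown. Across the 9132 genes with a mean of at least 6, the time changes under the drug and in DMSO, which share no array, correlated at Pearson's r = 0.61 as a description.

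On the first principal component of all genes (58.7% of variance), replicate 1 of 72 h GDC-0623 stood apart at 77.4, against 44.8 and 49.8 for the other arrays of its group. List medians and calls that moved without it are given beside the results they touch. The markers of other cell types were checked. None of the 15 colon epithelial markers measured reached a mean of 6 in any group: under the drug Epcam stood at 5.57 and 5.62, Cdh1 at 2.71 and 2.61, and Krt18 at 2.81 and 2.78 at 24 h and 72 h, so the epithelial identity of the label was not visible on these arrays. The leukocyte marker Ptprc stood at 2.89 and 2.87 and the endothelial marker Pecam1 at 3.25 and 3.08. Not all markers of these lists were dim: 2 of 16 leukocyte and 1 of 10 endothelial markers reached a mean of 6 in some group. In each of these lists 9 markers were below 5 in all groups.

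**Figure D1:**
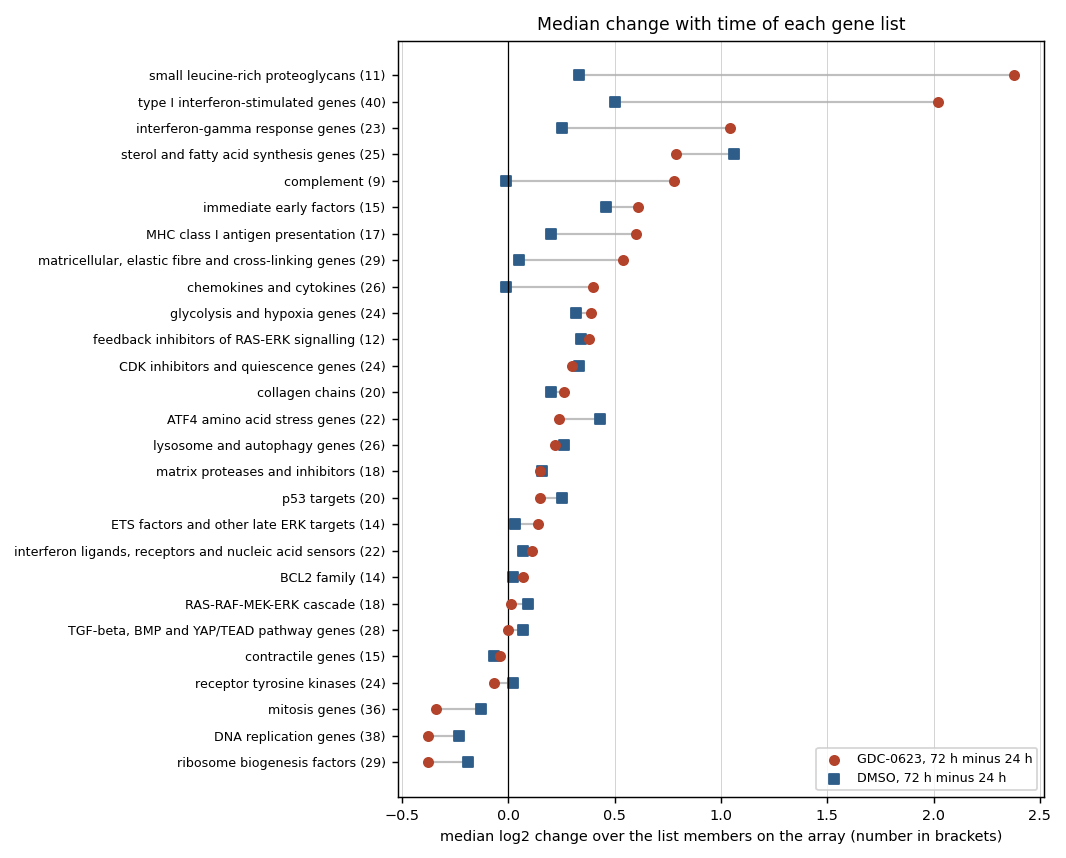
Median log2 change from 24 h to 72 h of the members of each gene list, under GDC-0623 (circles) and in DMSO (squares); the number of members measured is in brackets. The lists of small leucine-rich proteoglycans and type I interferon-stimulated genes lay at 2.38 and 2.02 under the drug against 0.33 and 0.50 in DMSO, whereas immediate early factors lay at 0.61 and 0.46, and DNA replication genes at -0.38 and -0.23.

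The immediate early transcription factors, the first genes to answer ERK, were partly higher at 72 h. Of 15 members 7 rose under the drug and none fell, with a median change of 0.61 against -0.03 over all genes. In DMSO 10 of the 15 rose, with a median of 0.46, and in the test of the difference no member passed. Without 72 h GDC-0623 replicate 1 the median was 0.34 and 6 members rose, and over the 6 omissions of 1 array the number that rose ran from 2 to 8, with the lowest counts without a 24 h drug array (4, 2 and 3 for replicates 1 to 3) or 72 h drug replicate 2 (4).

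Fos, the partner of Jun in the AP-1 factor, had log2 levels of 6.15, 6.08 and 6.78 at 24 h and 11.27, 9.22 and 7.64 at 72 h under the drug. In DMSO its levels were 5.86, 5.57 and 5.93 at 24 h and 9.81, 8.43 and 7.18 at 72 h. All 72 h arrays lay above all 24 h arrays in both media, and among the 72 h arrays replicate 1 was the highest and replicate 3 the lowest in both. The rise under GDC-0623 was 3.04 ± 0.71 (log2, SE, adjusted p = 0.0337) and that in DMSO 2.69 (adjusted p = 0.016), with a difference of 0.35 (adjusted p = 0.92). The call under the drug was lost when any 24 h drug array or 72 h drug replicate 2 was left out, with adjusted p up to 0.132.

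Egr1, the zinc finger factor most often used as a read-out of ERK, stood at 3.81, 4.31 and 4.13 at 24 h under the drug and at 6.61, 5.73 and 4.83 at 72 h. In DMSO it stood at 9.09, 9.0 and 8.86 at 24 h and at 11.74, 11.58 and 10.55 at 72 h. The drug arrays did not overlap between the times, and all 6 lay below every DMSO array. The rise was 1.64 ± 0.36 under the drug (adjusted p = 0.0261) and 2.31 in DMSO (adjusted p = 0.00178). These rises differed by -0.67, which did not pass the test (adjusted p = 0.612), and the drug call was lost without any one of the 24 h drug arrays or 72 h drug replicate 2 (adjusted p up to 0.096). The 24 h levels under the drug are in the background range, and measured from a level of 5 the rise was at least 1.65-fold.

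Ier3, an early response gene that modulates cell survival, rose from 9.48, 9.43 and 9.70 to 11.24, 11.04 and 10.50. Its rise of 1.39 ± 0.17 (adjusted p = 0.00159) was that of DMSO, 1.38, to within 0.01. Maff, a small MAF factor, rose by 0.80 (adjusted p = 0.00442) and Junb by 0.76 (adjusted p = 0.0439, kept only when 72 h drug replicate 3 was the array left out). Egr2 and Ier2 rose by 0.74 and 0.61, calls lost without 24 h drug replicate 2 and, for Ier2, replicate 3 (adjusted p up to 0.0805). Fosl1, a late ERK target of the FOS family, stood at 9.88 at 24 h and 9.76 at 72 h (change -0.12, adjusted p = 0.748), and Myc at 9.78 and 10.10 (0.32, adjusted p = 0.189).

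The feedback inhibitors were uneven. Of 12 members 4 rose and none fell under the drug, with a median of 0.38, whereas in DMSO 5 rose and 1 fell, with a median of 0.34. Only 1 member differed from DMSO. With the replicate block, in the fit over 12 arrays and without 72 h drug replicate 1 the rises numbered 6.

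That member was Spry2, a Sprouty protein that restrains receptor signalling to RAS. Its levels were 5.64, 5.98 and 6.02 at 24 h under the drug and 8.01, 8.01 and 7.60 at 72 h, against 6.84, 6.97 and 6.83 and then 7.65, 7.74 and 7.25 in DMSO. At 24 h every drug array lay below every DMSO array, and at 72 h the drug and DMSO arrays overlapped. The rise was 3.98-fold (log2 1.99 ± 0.14, adjusted p = 7.72e-05) under the drug against 0.67 in DMSO, a difference of 1.33 (adjusted p = 0.00292), and the call held without each array in turn. The 1 other probe set of Spry2 was not called.

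Dusp6, the phosphatase specific for ERK, stood at 7.47, 8.09 and 8.27 at 24 h and at 9.41, 9.81 and 9.01 at 72 h under the drug. In DMSO it stood at 10.14, 10.13 and 9.93 and then at 11.02, 11.09 and 10.60. It rose by 1.47 ± 0.23 (adjusted p = 0.00617), and all 3 of its 72 h drug arrays still lay below every DMSO array. Its rise in DMSO was 0.84, and the difference of 0.63 did not pass (adjusted p = 0.363). Spry1 rose by 0.63 and Errfi1, a brake on EGFR, by 0.56, and both rose in DMSO as well, by 0.52 and 0.43. The Errfi1 call was lost without 24 h drug replicate 3 (adjusted p = 0.0651).

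Several of the others had changes near 0 that were not called. Dusp4 stood at 6.33 and 6.31, Dusp5 at 6.27 at both times and Spry4 at 4.58 and 4.52, with changes of -0.02, 0.00 and -0.06 (adjusted p = 0.967, 1.0 and 0.865). The DMSO arrays of Dusp4 were at 8.2 to 8.85 over both times, above all 6 drug arrays, whose range was 5.92 to 6.63. ERK target genes thus did not move as 1 block under the drug. Spry2, Dusp6, Fos and Egr1 rose, and Dusp4, Dusp5 and Fosl1 were not called. Dusp9, an ERK phosphatase outside the list, fell (by 0.96, adjusted p = 0.00904). Spry4 was in the background range at both times under the drug, so a change in it could not be measured well.

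**Figure D2:**
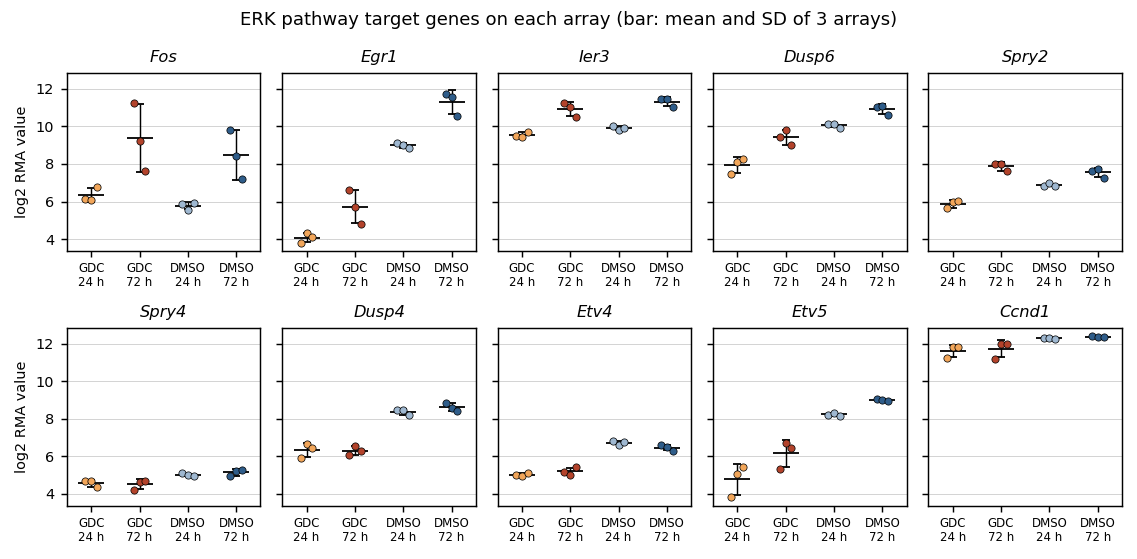
Log2 RMA level of 10 ERK pathway target genes on each of the 12 arrays, with the mean and SD of the 3 arrays of a group. Fos, Egr1, Ier3, Dusp6 and Spry2 rose under GDC-0623 and also in DMSO, and Spry4, Dusp4, Etv4 and Ccnd1 lay at like levels at both times under the drug; Egr1 and Dusp6 at 72 h under the drug remained below every DMSO array.

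Among ETS factors and later ERK targets 3 of 14 rose under the drug and none fell (median 0.14), 4 rose and 1 fell in DMSO, and none differed. The 3 that rose were the growth factor Vegfa (0.65, adjusted p = 0.00486), the cytokine Lif (0.55) and the membrane protein Emp1 (0.44, lost without 24 h drug replicate 3 and under the hybridization control shift, adjusted p = 0.0764), and Vegfa and Lif rose by 0.69 and 0.52 in DMSO. The Lif call was lost without 24 h drug replicates 1 or 2 (adjusted p up to 0.073). Etv5, a PEA3 family factor, had levels of 3.83, 5.07 and 5.41 at 24 h and 5.34, 6.71 and 6.45 at 72 h. Its arrays overlapped, since replicate 1 was the lowest at both times, and its change of 1.40 ± 0.43 did not pass (adjusted p = 0.0811). With the replicate number as a block it passed (adjusted p = 0.00105), as it did without 72 h drug replicate 1 (adjusted p = 0.0295) and under the hybridization control shift (adjusted p = 0.0124), and 1 of its 2 other probe sets was called higher. Etv4 stood at 5.02 and 5.21. Ccnd1, the cyclin of G1 entry, stood at 11.62 and 11.72 under the drug (change 0.10, adjusted p = 0.843, and -0.01 under the hybridization control shift).

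Of 18 members of the cascade itself 2 rose and 2 fell under the drug, where 5.79% of all genes rose and 3.11% fell. In DMSO 5 rose and 1 fell, with a median of 0.09. The median of 0.01 under the drug turned to -0.10 under the hybridization control shift and to -0.05 without 72 h drug replicate 1. Map2k1, which encodes the drug's target MEK1, rose from 9.70 to 10.17 (0.46, adjusted p = 0.0105) and by 0.48 in DMSO. The adaptor Shc1 rose by 0.50, Nras fell by 0.41 and Mras fell by 0.31, the last by 0.44 more than in DMSO (adjusted p = 0.0294). The fall of Mras was lost without each of the 6 arrays in turn (adjusted p up to 0.119) and its difference in 9 of 12 omissions. Among 24 receptor tyrosine kinases Egfr (0.46) and Pdgfra (0.55) rose, and Met (-0.71, adjusted p = 0.022) and Fgfr2 (-0.42) fell. None of these 4 receptors differed from DMSO in the test of the difference, although the difference for Met passed under the hybridization control shift (-0.74, adjusted p = 0.0418). The fall of Fgfr2 was kept in only 1 of 6 omissions, that of 72 h drug replicate 1. Erbb3 did, since it rose by 0.69 in DMSO and had a change of -0.20 under the drug (difference -0.89, adjusted p = 0.00747). Without 24 h drug replicate 2 the calls of Map2k1, Nras and Met were lost, without replicate 3 those of Map2k1 and Met, and Egfr kept its call in only 2 of 6 omissions, those of 24 h replicate 2 and 72 h replicate 1. Under the hybridization control shift Map2k1 (0.36, adjusted p = 0.0543) and Egfr (0.36, adjusted p = 0.0742) were no longer called.

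Interferon-stimulated genes were the largest group of rises. Of 40 type I interferon-stimulated genes 38 rose between 24 h and 72 h under GDC-0623, none fell, and their median change was 2.02. In DMSO 29 rose with a median of 0.50, and 32 of the 40 rose by more under the drug than in DMSO. The mean level over the 40 was 7.36 to 7.61 on the 24 h drug arrays and 9.5 to 10.26 on the 72 h drug arrays, against group means of 6.53 and 7.31 in DMSO. The count of 38 was the same without each of the 6 arrays, and without 72 h GDC-0623 replicate 1 the median was 1.81. Not all of the 32 differences were as stable: those of Oasl2, Xaf1 and Rtp4 were kept in only 4, 6 and 7 of 12 omissions. That of Dtx3l was kept in 10 and lost under the hybridization control shift (adjusted p = 0.0862). Epsti1 and Uba7 were the members not called, although 2 other probe sets of each were called higher.

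Ifi27l2a, a small interferon-induced membrane protein, was among the largest rises, from 3.35, 3.44 and 3.59 at 24 h to 9.72, 8.36 and 8.99 at 72 h. In DMSO it stood at 3.37, 3.08 and 3.25 and then at 3.74, 3.54 and 3.76. A gene in the background range in all other groups was thus bright on the 3 arrays of 72 h GDC-0623. Measured from a level of 5, the rise was at least 16.3-fold (adjusted p = 1.75e-05 for the change of 5.56 ± 0.27 in RMA values), and the difference from DMSO passed (adjusted p = 1.21e-05).

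Ifit3, which encodes a protein that binds viral RNA complexes, rose from 7.24, 6.84 and 7.22 to 12.51, 11.61 and 11.92. Its rise of 4.91 ± 0.21 (30.1-fold, adjusted p = 1.31e-05) exceeded the 1.9 of DMSO by 3.01 (adjusted p = 1.93e-04). The transcription factor Irf7, which amplifies type I interferon, rose from 6.31, 6.01 and 5.98 to 10.62, 9.30 and 9.83 (3.82 ± 0.27, adjusted p = 8.43e-05). In DMSO Irf7 rose from 4.95, 4.90 and 4.79 to 5.79, 5.49 and 5.49, so that its highest DMSO array was below its lowest 24 h drug array.

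The sensors of nucleic acid Zbp1 (4.60), Oas1a (4.20) and Oas2 (4.10) and the negative regulator Usp18 (3.83) rose 14.3-fold to 24.3-fold. In DMSO these 4 rose by 0.50, 0.44, 0.42 and 1.60, and in each the difference passed. The STAT partner genes Stat2 (2.74) and Irf9 (2.15) rose as well, with differences from DMSO of 2.04 and 0.96. On every one of the genes Ifi27l2a, Ifit3, Irf7, Zbp1, Oas1a, Oas2 and Usp18, 72 h GDC-0623 replicate 1 was the highest array.

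Other members rose strongly in both media. Rsad2, the antiviral enzyme viperin, rose from 8.80, 8.29 and 7.91 to 12.45, 11.53 and 11.81 under the drug (3.60 ± 0.26, adjusted p = 8.59e-05). In DMSO it rose from 7.01, 6.71 and 6.38 to 9.67, 9.26 and 8.93 (2.59), and the difference of 1.01 did not pass (adjusted p = 0.214). Ifit1 rose by 3.5 under the drug and by 2.69 in DMSO (difference 0.81, adjusted p = 0.312). With the replicate number as a block both differences passed (adjusted p = 0.00882 for Rsad2 and 0.0197 for Ifit1). Cmpk2 and Ddx60 rose by 2.35 and 2.75 under the drug and by 2.06 and 2.02 in DMSO, with differences of 0.29 and 0.73 that did not pass. In DMSO at 24 h Cmpk2 and Ddx60 stood at 4.52 and 4.08, so that their rises there were at least 2.99-fold and 2.14-fold when measured from a level of 5.

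**Figure D3:**
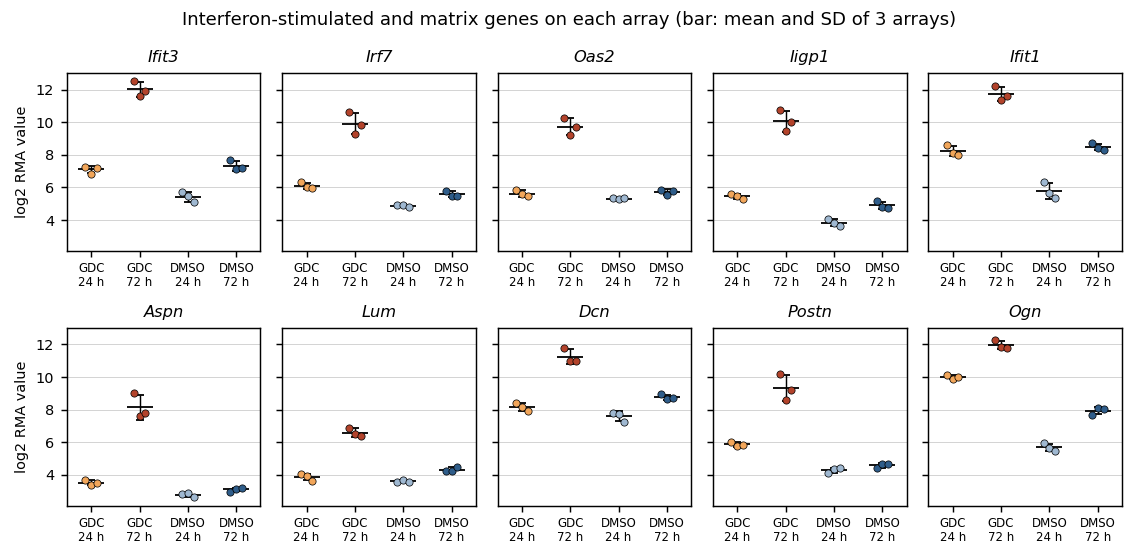
Log2 RMA level of 5 interferon-stimulated genes and 5 matrix genes on each of the 12 arrays, with the mean and SD of the 3 arrays of a group. The 72 h GDC-0623 arrays of Ifit3 (11.61 to 12.51), Irf7, Oas2, Iigp1, Ifit1, Aspn, Lum, Dcn, Postn and Ogn lay above all other arrays of the gene, and the rises of Ifit1 and Ogn in DMSO were 2.69 and 2.25.

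Genes typical of interferon-gamma rose too, 16 of 23 with none falling and a median of 1.04, against 10 rises, 1 fall and a median of 0.25 in DMSO, and 9 rose by more than in DMSO. Iigp1, an immunity-related GTPase, rose from 5.60, 5.46 and 5.31 to 10.72, 9.44 and 10.04 (4.61 ± 0.26, adjusted p = 2.73e-05, difference 3.54). The guanylate-binding proteins Gbp3 and Gbp6 rose by 3.43 and 3.46, with differences of 2.24 and 2.03. Cd274, which encodes the checkpoint ligand PD-L1, rose from 6.05, 5.95 and 5.89 to 8.02, 7.40 and 7.41 (1.65 ± 0.16, adjusted p = 3.72e-04), by 1.19 more than in DMSO. Socs1, the inhibitor of JAK kinases, rose by 0.51 under the drug and fell by 0.36 in DMSO (difference 0.87, adjusted p = 4.22e-04). Genes of these families have close copies in the mouse genome, and a probe set named for one may also read another.

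The upstream genes moved less. Of 22 ligands, receptors and sensors 5 rose, and 3 without 24 h drug replicate 2 or 3. Ifnb1 stood at 3.83, 3.78 and 3.84 at 24 h and at 4.16, 4.10 and 4.04 at 72 h, in the background range throughout (0.28, adjusted p = 0.0545). Ifna2 and Ifna4 were in the same range, with means of 3.75 to 4.55 under the drug. Those that rose were the endosomal RNA sensor Tlr3 (1.72, difference 1.32), Tlr2 (1.61, difference 1.36), the adaptor Sting1 (1.29, difference 1.00 with adjusted p = 0.0451), Tlr4 (0.53) and the receptor chain Ifnar2 (0.51). The Sting1 difference was kept in only 4 of the 12 omissions of 1 array, those of a 72 h drug array or of 72 h DMSO replicate 1, with adjusted p up to 0.111 in the others. The Tlr4 call was lost without 24 h drug replicates 2 or 3 (adjusted p up to 0.074), and that of Ifnar2 was kept only in the omission of 72 h drug replicate 3 and was lost under the hybridization control shift (adjusted p = 0.0555). The DNA sensor gene Cgas (-0.10) and the adaptor gene Mavs (-0.01) were not called.

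In MHC class I antigen presentation 14 of 17 members rose and none fell (median 0.60), 5 rose in DMSO (median 0.20), and 4 rose by more than in DMSO: the peptide transporters Tap1 and Tap2, the loading factor Tapbpl and the immunoproteasome subunit Psmb10. The differences of Tap2, Tapbpl and Psmb10 were kept in only 1, 2 and 3 of 12 omissions and lost under the hybridization control shift (adjusted p = 0.22, 0.224 and 0.2). Tap1 rose from 8.52, 8.37 and 8.30 to 9.96, 9.49 and 9.69 (1.32 ± 0.12, adjusted p = 3.38e-04, difference 1.12). Psmb9, another immunoproteasome subunit, rose by 1.28, and its difference of 0.73 did not pass (adjusted p = 0.0549) but did with the replicate block (adjusted p = 0.016) and without 24 h DMSO replicate 3 or 72 h drug replicate 2. The class I activator Nlrc5 rose by 1.1 and the heavy chain gene H2-K1 by 0.61. B2m, the light chain, was near the top of the scale at 13.65 to 13.72 and 13.91 to 14.09, and its change of 0.29 did not pass (adjusted p = 0.0642).

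Sequence in the promoters of these genes was read from RefSeq (build GRCm38.p6), in windows from 250 bases before to 50 bases after each start. The interferon-stimulated response element was searched as GAAANNGAAA on both strands and is a core that proteins of the IRF family can bind. It was present in 12 of the 29 type I interferon-stimulated genes that had a promoter there (41.4%, 95% Wilson interval 25.5% to 59.3%) and in 8 of 18 interferon-gamma genes (44.4%), against 3.99% of all 27025 genes. In the 250 bases before the start alone, it was in 31% of the type I list and 3.46% of all genes. The gamma-activated sequence TTCNNNGAA was in 7 of the 18 interferon-gamma genes (38.9%) against 9.55% of all, and 3 of the 18 held both patterns. A match is a run of letters and not a shown binding site. The stretches below hold the element in genes that rose at least 2-fold under the drug, with all matches in capitals (as TTTC runs where the element lies on the opposite strand) and 30 bases to either side, 5′ to 3′ on the strand of the gene. Ifit3 lies on the plus strand at chr19:34583343-34583446, Ifit1 on the plus strand at chr19:34640755-34640843, Oas1a on the minus strand at chr5:120907500-120907575, Rsad2 on the minus strand at chr12:26456533-26456602, Gbp3 on the plus strand at chr3:142559969-142560044 and Cxcl10 on the minus strand at chr5:92349063-92349132.
Ifit3: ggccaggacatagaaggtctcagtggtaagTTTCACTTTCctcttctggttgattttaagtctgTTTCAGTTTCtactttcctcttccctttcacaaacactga
Ifit1: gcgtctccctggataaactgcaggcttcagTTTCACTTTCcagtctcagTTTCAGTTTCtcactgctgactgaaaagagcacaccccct
Oas1a: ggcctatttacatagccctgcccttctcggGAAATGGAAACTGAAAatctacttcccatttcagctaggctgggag
Rsad2: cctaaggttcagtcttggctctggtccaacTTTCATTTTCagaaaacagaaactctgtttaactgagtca
Gbp3: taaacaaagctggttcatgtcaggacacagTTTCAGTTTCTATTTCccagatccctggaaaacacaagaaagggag
Cxcl10: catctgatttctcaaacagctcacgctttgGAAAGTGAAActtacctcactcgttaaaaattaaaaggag

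The stretches of Ifit3, Ifit1, Oas1a and Gbp3 hold 2 matches each, overlapping in Oas1a and Gbp3, and those of Rsad2 and Cxcl10 hold 1. Among these genes Ifit1 and Rsad2 rose by 2.69 and 2.59 in DMSO, and Oas1a by 0.44. All were printed because they hold the element. Whether it sorts genes by their behaviour in DMSO was therefore not tested.

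Chemokines and cytokines were mostly in the background range (13 of 26 below 5 in all groups). Under the drug 10 rose and none fell, in DMSO 2 rose and 3 fell, and 5 differed upward from DMSO. The rises numbered 5 or 4 without 24 h drug replicate 2 or 3. Ccl2, the chemokine for monocytes, stood at 9.34, 9.80 and 9.99 at 24 h and at 11.15, 10.78 and 10.55 at 72 h under the drug. In DMSO it stood at 10.14, 9.95 and 9.80 and then at 9.47, 9.72 and 9.48. It therefore rose with time under the drug (1.12 ± 0.19, adjusted p = 0.00783) and fell by 0.41 in DMSO (adjusted p = 0.0431), and the difference of 1.52 passed (adjusted p = 0.00342). The related chemokine Ccl7 moved likewise, rising by 1.21 under the drug while it fell by 0.71 in DMSO (difference 1.92, adjusted p = 8.58e-04).

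Il6 rose from the background range, 3.84, 3.43 and 3.35, to 6.97, 5.56 and 5.11, at least 1.84-fold when measured from a level of 5 (adjusted p = 0.00782). Its difference from DMSO passed (adjusted p = 0.0252) but was kept in only 6 of 12 omissions. Cxcl12, a stromal chemokine, rose by 1.45 (difference 1.46). Il15, which sustains lymphocytes, rose from 4.57 to 5.93, at least 1.91-fold, a call lost without 24 h drug replicate 3 (adjusted p = 0.0523), and its difference was kept in only 4 of 12 omissions. Without 24 h drug replicates 2 or 3 neither the rise nor the difference of Cxcl12 passed, and the difference was also lost without replicate 1 or 3 of either DMSO group. Ccl5, a chemokine for T cells, rose by 2.44 under the drug and by 1.9 in DMSO, and the difference of 0.54 did not pass (adjusted p = 0.406). Of 9 complement genes 5 rose and 4 of those rose by more than in DMSO. The proteases of the C1 complex led: C1s1 went from 5.40, 5.52 and 6.04 to 9.20, 8.13 and 8.37 (2.91 ± 0.26, adjusted p = 2.59e-04, difference 2.32) and C1ra rose by 1.91 (difference 1.35).

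The small leucine-rich proteoglycans, secreted proteins that bind collagen fibrils and set their spacing, rose most among the matrix lists. Of 11 members 9 rose and none fell (median 2.38). In DMSO 4 rose (median 0.33), and 8 rose by more under the drug than in DMSO. The 9 calls held without each array in turn, with medians of 2.18 to 2.49.

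Aspn, which encodes asporin, stood at 3.71, 3.38 and 3.47 at 24 h and at 9.03, 7.63 and 7.77 at 72 h under the drug, and at 2.61 to 3.18 on all 6 DMSO arrays. Measured from a level of 5 it rose at least 8.84-fold (adjusted p = 6.30e-05 for the change of 4.62 ± 0.31 in RMA values), and the difference from DMSO passed (adjusted p = 5.48e-05). Dcn, which encodes decorin, rose from 8.42, 8.15 and 7.94 to 11.78, 10.97 and 11.01 (3.08 ± 0.21, adjusted p = 6.57e-05), and by 1.15 in DMSO (difference 1.93, adjusted p = 0.00231). Lum, which encodes lumican, rose from 4.05, 3.92 and 3.65 to 6.88, 6.51 and 6.39, at least 3.02-fold when measured from a level of 5 (adjusted p = 2.56e-05).

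Prelp, Fmod and Bgn rose by 3.02, 2.46 and 2.38, with differences of 2.71, 2.23 and 1.66. Ogn, which encodes osteoglycin, behaved otherwise. It rose from 10.15, 9.90 and 9.98 to 12.27, 11.85 and 11.77 under the drug and from 5.93, 5.65 and 5.46 to 7.68, 8.08 and 8.03 in DMSO. These rises of 1.95 and 2.25 did not differ (-0.30, adjusted p = 0.578), although every drug array lay above every DMSO array.

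Of 29 matricellular, elastic fibre and cross-linking genes 12 rose and none fell (median 0.54), 3 rose and 2 fell in DMSO (median 0.05), and 5 differed upward from DMSO. When 24 h drug replicate 2 or 3 was left out, 6 rose, and without 72 h drug replicate 1 the median was 0.30. With the replicate block and in the fit over 12 arrays 16 rose and 2 fell, and under the hybridization control shift 13 rose and 2 fell. Among the 5 differences, those of Loxl3 and Efemp1 were each kept in only 4 of 12 omissions. Both were lost under the hybridization control shift (adjusted p = 0.0616 and 0.23). Postn, which encodes the matricellular protein periostin, rose from 6.04, 5.76 and 5.84 to 10.19, 8.56 and 9.21. It stood at 4.09 to 4.41 and 4.39 to 4.69 in DMSO. Its rise was 10.9-fold (log2 3.44 ± 0.32, adjusted p = 3.69e-04, difference 3.14).

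Fbln5, which encodes an elastic fibre protein, rose from 9.17, 8.97 and 9.06 to 11.24, 10.65 and 10.79 (1.83, difference 1.62), though its 1 other probe set was not called. The prolyl hydroxylase gene P4ha2 rose by 1.67, and its difference of 0.89 did not pass (adjusted p = 0.11) but did with the replicate block (adjusted p = 0.0414). Fn1, fibronectin, rose by 1.04, a call lost without 24 h drug replicates 2 or 3 (adjusted p up to 0.0535). Thbs1, which encodes thrombospondin 1, rose by 0.57 under the drug and fell by 0.78 in DMSO (difference 1.35, adjusted p = 4.39e-04), with its rise lost without any one of the 24 h drug arrays (adjusted p up to 0.0876). Mfap5 was uneven at 72 h, with 8.37 on replicate 1 against 5.89 and 6.44 on the others, though its rise stayed called without replicate 1. Its rise from a mean of 4.47, at least 3.73-fold, was lost without any one of the 24 h drug arrays (adjusted p up to 0.0918), and its difference of 2.46 did not pass (adjusted p = 0.0522) but did with the replicate block (adjusted p = 0.0271) and without any one of the 72 h drug arrays.

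Among collagen chains 9 of 20 rose, none fell and 11 were not called under the drug (median 0.26). In DMSO 8 rose, 1 fell and 11 were not called (median 0.20), and 3 differed. Leaving out 24 h drug replicate 2 or 3 left 4 or 5 rises. Col3a1, a fibrillar collagen and one of the brightest genes, rose from 12.48, 12.02 and 12.08 to 13.59, 13.29 and 13.37 (1.22), and by 1.19 in DMSO. The 3 that rose by more than in DMSO were Col11a1, from 4.75, 4.62 and 5.18 to 6.33, 6.64 and 6.59 (at least 2.87-fold when measured from a level of 5), Col8a1 (0.60, lost without 24 h drug replicate 2, difference 0.77) and Col1a1, which went from 4.21 to only 5.05 to 5.16 at 72 h, at least 1.06-fold. Among matrix proteases and their inhibitors 5 of 18 rose (3 without any one of the 24 h drug arrays), among them the aggrecanase genes Adamts5 (1.74) and Adamts1 (1.18), and no rise in this list was called larger than in DMSO. The difference for Adamts5 (0.99, adjusted p = 0.151) passed without 72 h drug replicate 2 (adjusted p = 0.0318).

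Fibroblast and pericyte markers overlap with these lists. Of 12 such markers 6 rose under the drug, where 5.79% of all genes did: Dcn, Lum, Dpt, Col1a1, Pdpn and Pdgfra. In DMSO 5 of the 12 rose, and the median change was 0.41 in both media. From DMSO 3 differed upward and 1 downward. The calls of Dpt and Pdpn were lost without 24 h drug replicates 2 or 3, and that of Dpt also without 72 h drug replicates 1 or 2 (adjusted p up to 0.166). The mean over the 12 was 6.67 to 6.91 on the 24 h drug arrays and 7.47 to 7.76 on the 72 h drug arrays, against group means of 6.15 and 6.55 in DMSO. Thy1, Fap and Rgs5 were in the background range, at 3.27 to 4.08 at both times. Of the leukocyte markers 1 of 16 rose (Lyz2, from 4.92 to 5.44, kept in 2 of 6 omissions) and of the endothelial markers none of 10. The part of a change in cell make-up in the matrix result was not tested, and in a bulk sample a larger share of one kind of cell and more RNA per cell cannot be told apart.

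TGF-beta, BMP and YAP/TEAD pathway genes split in direction in both media. Of 28 members 11 rose and 8 fell in DMSO, and 6 rose and 5 fell under the drug. From DMSO 4 differed upward and 1 downward. The median of 0.00 under the drug became -0.11 under the hybridization control shift and -0.05 without 72 h drug replicate 1. Without any one of the 24 h drug arrays or 72 h drug replicate 2 the rises numbered 2 or 3, and the falls 3, as they did without 72 h drug replicate 3. Id1 and Id2, immediate targets of BMP signalling that block differentiation factors, fell in both media. Id1 went from 8.11, 8.18 and 8.57 to 7.51, 7.16 and 6.84 under the drug (-1.12 ± 0.17, adjusted p = 0.00573) and from 8.77, 8.74 and 8.76 to 6.78, 6.67 and 6.48 in DMSO (-2.11). It thus fell by less under the drug (difference 1.00, adjusted p = 0.026), a call lost without any one of the 24 h DMSO arrays, 72 h DMSO replicates 2 or 3, or 24 h drug replicates 1 or 2 (adjusted p up to 0.0778). Id2 fell by 0.85 and in DMSO by 1.85 (difference 1.0, adjusted p = 0.0289), with its fall lost without 24 h drug replicate 3 and its difference in 7 of the 12 omissions. Smad6, the inhibitory SMAD of the BMP branch, fell by 1.1 and in DMSO by 1.25.

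Ccn2, a YAP and TGF-beta target formerly called Ctgf, went the other way from DMSO. Its levels were 9.57, 9.47 and 9.86 at 24 h and 11.17, 10.39 and 10.14 at 72 h under the drug, and 7.89, 8.01 and 8.25 and then 6.75, 7.09 and 6.77 in DMSO. The rise of 0.93 under the drug (adjusted p = 0.0405) was lost without any one of the 24 h drug arrays or 72 h drug replicate 2 (adjusted p up to 0.157), while the difference of 2.11 from the fall in DMSO passed (adjusted p = 0.00164). The co-receptor gene Tgfbr3 rose by 1.07 (difference 0.71, adjusted p = 0.00546, and 0.57 with adjusted p = 0.0578 under the hybridization control shift). The ligand gene Tgfb3 fell by 0.48 and rose by 0.27 in DMSO (difference -0.74, adjusted p = 0.0067), with its fall kept in only 2 of 6 omissions, those of 24 h drug replicate 3 and 72 h drug replicate 1. Tgfb2 (-0.45, adjusted p = 0.355) was not called, but was with the replicate block (adjusted p = 0.0406) and without 72 h drug replicate 1 (adjusted p = 0.0403). Of 15 contractile genes 4 rose and 1 fell, with 1 or 2 rises without a 24 h drug array or 72 h drug replicate 3. Acta2, smooth muscle actin, rose by 1.19 (adjusted p = 0.0295, lost without 24 h drug replicates 2 or 3 or 72 h drug replicate 3). Its difference of 1.14 did not pass (adjusted p = 0.167) but did with the replicate block (adjusted p = 0.0247). Tagln, another smooth muscle gene, stood at 6.13 and 6.09.

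The promoters of matricellular genes were searched for the TEAD site GGAATG and the AP-1 site TGANTCA on both strands. Among the 18 members with a promoter there, 2 held each (11.1%), against 16.6% and 8.97% of all genes. The same TEAD letters were in 7 of 17 TGF-beta, BMP and YAP/TEAD pathway genes (41.2%, 95% Wilson interval 21.6% to 64%) and in 7 of 13 contractile genes (53.8%, 29.1% to 76.8%). The site had been assigned to the matricellular list alone, and these other lists were picked after the shares in all lists were seen. Shares above that of all genes were also found elsewhere, as in 2 of 4 complement genes (50%) and 3 of 12 BCL2 family genes (25%).

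Some cell cycle genes passed as lower at 72 h, with small falls. Of all genes 3.11% fell under the drug and 5.14% in DMSO. Of 38 DNA replication genes 9 fell, none rose and 29 were not called under the drug, with a median of -0.38. In DMSO 18 fell with a median of -0.23, and no member passed the test of the difference. The number called moved with the fit while the median kept its sign: 20 fell with the replicate number as a block, 25 under the hybridization control shift, and 0 to 7 without 1 array, where the medians were -0.47 to -0.24. Without 24 h drug replicate 2 or 3 there were no falls that passed, without 24 h replicate 1 or 72 h replicate 3 there were 5, and without 72 h replicate 1 there were 2 with a median of -0.24.

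Ccne2, the cyclin of S phase entry, fell most, from 8.28, 8.68 and 8.73 to 7.54, 8.06 and 7.75 (-0.78 ± 0.15, adjusted p = 0.017), and by 0.56 in DMSO. Rrm2, the ribonucleotide reductase subunit, fell from 12.06, 12.21 and 12.11 to 11.22, 11.65 and 11.60 (-0.64, adjusted p = 0.0129), and by 0.46 in DMSO. The helicase subunit gene Mcm5 fell by 0.55 and in DMSO by 0.47. The arrays of these genes did not overlap between the times under the drug, and the calls of Ccne2 and Rrm2 were lost without 24 h drug replicates 2 or 3 (adjusted p up to 0.0874). That of Mcm5 was kept only when 72 h drug replicate 2 was the array left out.

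Of 36 mitosis genes 5 fell and 1 rose under the drug (median -0.34). In DMSO 8 fell and 1 rose (median -0.13), and none differed. With the block 13 fell, under the hybridization control shift 23, and without 1 array 0 to 10 (0 without 24 h drug replicate 2 or 3, 3 without 24 h replicate 1, 2 with a median of -0.22 without 72 h replicate 1, and 10 without 72 h replicate 2). The kinesin gene Kif11 fell by 0.61 (adjusted p = 0.0235) and Kif23 by 0.56. Birc5, which encodes survivin, fell from 11.28, 11.42 and 11.43 to 10.53, 10.91 and 10.93 (-0.59, adjusted p = 0.0171), and by 0.55 in DMSO. Mki67, the proliferation marker, stood at 10.73 and 10.46 (-0.27, adjusted p = 0.285). The securin gene Pttg1 rose, by 0.47, a call lost without 24 h drug replicates 2 or 3 and under the hybridization control shift (adjusted p = 0.0613). The falls of Birc5, Kif11 and Kif23 were lost without 24 h drug replicates 2 or 3 (adjusted p up to 0.131), and that of Kif23 also without 72 h drug replicates 1 or 3. With the mean of all probe sets of a gene, neither Kif11 nor Kif23 was called. On Birc5, Kif11, Kif23, Rrm2 and Ccne2, 72 h GDC-0623 replicate 1 was the lowest array.

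The promoters of the cell cycle lists hold elements known from such genes. The CHR element TTTGAA was in 22 of 30 mitosis genes with a promoter there (73.3%, 95% Wilson interval 55.6% to 85.8%; 36.7% in the 250 bases before the start) against 20.2% of all genes, the CCAAT box in 22 of 30 against 41.1%, and both in 19 of 30 (63.3%) against 8.97%. The CCAAT box was not particular to the mitosis list. It was in 84.2% of sterol and fatty acid synthesis genes, 73.7% of ATF4 genes and 71.4% of MHC class I genes, lists with rises under the drug. The E2F site TTTCGCGC was in 7 of 31 DNA replication genes (22.6%) against 0.374% of all genes. Stretches of mitosis and replication genes that fell under the drug follow, with the CHR element in capitals in Kif11 (chr19:37376333-37376398, plus strand) and Kif23 (chr9:61946762-61946827, minus strand), and the E2F site in capitals in Mcm5 (chr8:75109326-75109393, plus strand). They show the letters that such genes share, and their falls did not differ from those in DMSO.
Kif11: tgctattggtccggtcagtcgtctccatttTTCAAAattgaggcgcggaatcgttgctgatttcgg
Kif23: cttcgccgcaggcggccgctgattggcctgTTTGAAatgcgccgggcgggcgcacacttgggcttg
Mcm5: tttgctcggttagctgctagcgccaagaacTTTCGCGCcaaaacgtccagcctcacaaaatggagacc

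In Kif11 the element is read on the opposite strand as TTCAAA, 19 bases before the start, and in Kif23 it begins at base 3 of the transcript, with the start as base 1. Both stretches also hold a CCAAT box on the opposite strand, as ATTGG.

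Ribosome biogenesis factors, which support growth, had a median of -0.38 with 2 of 29 called lower (Rrp12, -0.72, and Ddx21, -0.50), and a median of -0.19 with 12 called lower in DMSO. None differed. With the block 18 fell and under the hybridization control shift 19. The calls of both genes were lost without 24 h drug replicates 2 or 3 or 72 h drug replicates 1 or 2, and that of Ddx21 also without 72 h drug replicate 3 (adjusted p up to 0.182). The MYC E-box CACGTG was in 4 of 24 promoters of this list (16.7%; 4.17% in the bases before the start) against 8.09% of all.

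CDK inhibitors and quiescence genes had 7 rises of 24 under the drug (median 0.30) and 13 rises and 1 fall in DMSO (median 0.33). Without any one of the 24 h drug arrays or 72 h drug replicate 1 the rises numbered 3 or 4. Ccng2, a cyclin of arrested cells, rose by 1.12 and in DMSO by 1.49. Cdkn1b, which encodes p27, rose by 0.48 (adjusted p = 0.0396), a call lost without any one of the 24 h drug arrays or 72 h drug replicate 1 (adjusted p up to 0.153), and under the hybridization control shift (0.38, adjusted p = 0.077). Cdkn1a, which encodes p21, stood at 8.31, 7.92 and 8.02 at 24 h and at 8.36, 8.31 and 8.05 at 72 h under the drug, while in DMSO it rose from 7.60, 7.57 and 7.68 to 8.57, 8.64 and 8.66. Its change under the drug was 0.16 (adjusted p = 0.496) against 1.01 in DMSO, a difference of -0.85 (adjusted p = 0.00677). Cdkn2b, which encodes p15, rose by 0.59, by 0.69 less than in DMSO, with the rise lost without 24 h drug replicates 2 or 3 and the difference kept in only 4 of 12 omissions.

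Sterol and fatty acid synthesis genes rose with time as a block in both media. Of 25 members 22 rose under the drug and 22 in DMSO, with medians of 0.79 and 1.06, and without 1 array 20 to 23 rose under the drug. Fads2, the desaturase, rose from 8.33, 8.30 and 8.12 to 10.21, 10.35 and 10.37 (2.06 ± 0.09, adjusted p = 1.31e-05), and by 2.36 in DMSO. Insig1, which senses sterols, rose by 1.57 and 1.92 and Cyp51 by 1.29 and 1.46, without a difference that passed. Scd1 rose by more under the drug (1.79 against 1.25, difference 0.54, adjusted p = 0.0106, and 0.4 with adjusted p = 0.142 under the hybridization control shift), and Hmgcs1, Fdft1, Msmo1 and Scd2 rose by less, with differences of -0.76 to -0.48. Those of Hmgcs1 and Scd2 were kept in 8 of 12 omissions, that of Msmo1 in 9 and that of Fdft1 in 4.

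**Figure D4:**
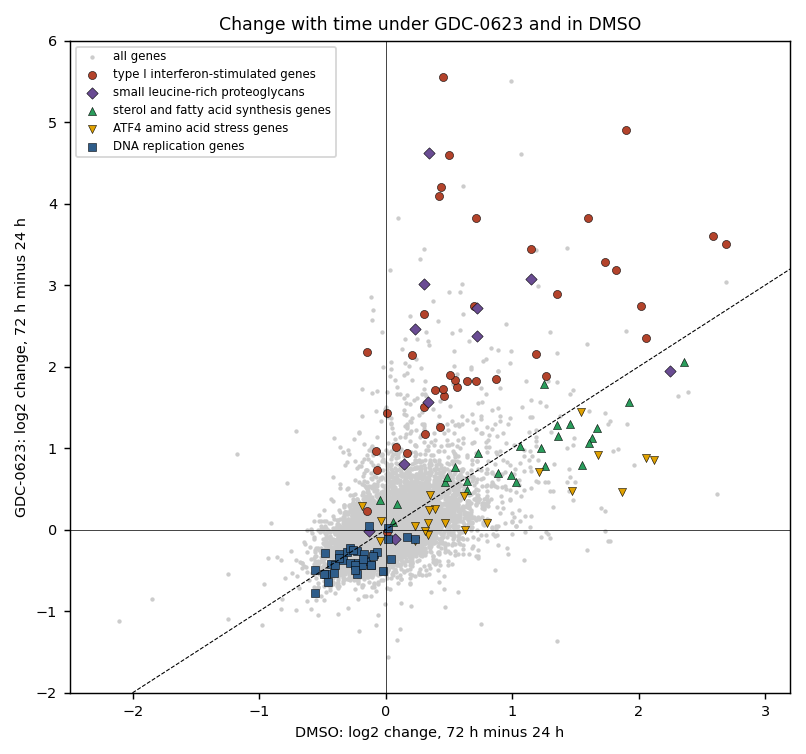
Log2 change from 24 h to 72 h under GDC-0623 (vertical axis) against that in DMSO (horizontal axis) for all 18193 genes, with the members of 5 lists marked and the line of equal change dashed. Most type I interferon-stimulated genes and small leucine-rich proteoglycans lay above the line, sterol genes near or below it and ATF4 genes mostly below it, and DNA replication genes lay near the origin on the lower left.

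Of 22 amino acid stress genes driven by ATF4, 5 rose under the drug (median 0.24) and 17 in DMSO (median 0.43). In the test of the difference 5 rose by less under the drug or were not called there, and 17 did not pass. Under the drug 3 rose when 24 h replicate 2 was left out. Ddit4, the inhibitor of mTORC1 also called REDD1, rose from 8.89, 8.85 and 8.40 to 9.33, 9.63 and 9.72 under the drug (0.85, adjusted p = 0.00975) and from 8.51, 8.38 and 8.06 to 10.23, 10.41 and 10.68 in DMSO (2.12), a difference of -1.28 (adjusted p = 0.00783). Cth, the enzyme that makes cysteine, had a change of 0.46 under the drug (adjusted p = 0.191) and rose by 1.87 in DMSO (difference -1.41). Slc7a11, the cystine transporter, had 0.47 against 1.47 (difference -0.99). Psph and Aldh1l2 were the others. The differences of Slc7a11 and Psph were kept in only 4 and 3 of 12 omissions (adjusted p up to 0.105). Nupr1 rose alike in both, by 1.44 and 1.54.

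Glycolysis and hypoxia genes rose in both media, 14 of 24 with 1 fall under the drug (median 0.39) and 14 in DMSO (median 0.32). Without any one of the 24 h drug arrays 8 or 9 rose. Adm, a hypoxia-induced peptide hormone, rose by 1.82 and 1.11, Bnip3 by 1.02 and 1.19, and Hk2 by 0.84 and 0.72. Slc2a1, Ndrg1 and Ankrd37 rose by less under the drug than in DMSO or were not called (differences of -0.68, -1.12 and -0.90, the last kept in 7 of 12 omissions). Among p53 targets 4 of 20 rose under the drug (2 without 24 h drug replicate 2) and 9 in DMSO. Gadd45a rose by 0.79 against 1.96 (difference -1.18, adjusted p = 0.00473), and Fas, the death receptor, rose by 0.80 under the drug with 0.01 in DMSO (difference 0.79, adjusted p = 0.0325). That difference was kept in only 4 of the 12 omissions, those of 24 h DMSO replicate 3, 72 h DMSO replicate 2 and 72 h drug replicates 2 and 3, and was lost under the hybridization control shift (0.65, adjusted p = 0.0601).

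Apoptosis regulators of the BCL2 family, 14 in all, had 1 rise and 1 fall under the drug, where 5.79% of all genes rose and 3.11% fell. In DMSO 2 rose and none fell. From DMSO 2 differed downward, as 1.46% of all genes did, and none upward. The median of 0.07 under the drug became -0.04 under the hybridization control shift and 0.01 without 72 h drug replicate 1. The rise under the drug was that of Bcl2l2, a survival factor (0.46, adjusted p = 0.0284). Its call was lost without any one of the 24 h drug arrays and under the shift (adjusted p = 0.0633). Bok, a pore-forming member, fell from 9.05, 9.18 and 9.09 to 7.99, 8.08 and 8.11 (-1.05 ± 0.08, adjusted p = 1.15e-04) and stood at 8.79 to 8.93 on all DMSO arrays (difference -0.98). The pro-apoptotic gene Bcl2l11, a known ERK-repressed gene, stood at 7.05 and 7.07. Lysosome and autophagy genes had 10 rises of 26 (median 0.22) and 13 in DMSO (median 0.26), and none differed. Without 24 h drug replicates 1, 2 or 3 the rises numbered 5, 2 and 2, and without 72 h drug replicates 1 or 3 they numbered 3 and 4, with a median of 0.13 in the former case.

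Outside the lists, Apod, which encodes the lipid carrier apolipoprotein D, rose 45.7-fold under the drug, from 5.53, 5.44 and 4.96 to 11.46, 10.29 and 10.72 (log2 5.51 ± 0.26, adjusted p = 1.75e-05). In DMSO it rose by 0.99. Phf11d (4.22) and the GTPase-like gene Gm4951 also rose, from 6.13 to 10.35 and from 4.44 to 8.28, the latter at least 9.69-fold when measured from a level of 5. Mgp, among the 5 largest rises in DMSO, rose by less under the drug (1.69 against 2.39, difference -0.70, adjusted p = 0.0211). That difference was kept in only 5 of 12 omissions. Measured from a level of 5, Mgp rose at least 2.83-fold under the drug and 4.64-fold in DMSO.

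The falls were shallower than the rises. Gcnt1, a glycosyltransferase of O-glycans, fell from 8.03, 7.78 and 7.45 to 6.49, 6.13 and 5.97 (-1.56 ± 0.17, adjusted p = 7.55e-04) and had 0.02 in DMSO. Adam8, a membrane protease, fell by 1.35 from 8.69 to 7.33, against 0.09 in DMSO. The transcription factor Maf fell by 1.17 and the endocytic receptor Lrp2 by 1.25. In Gcnt1, Adam8 and Maf the fall was deeper than the change in DMSO (differences of -1.58, -1.44 and -1.09), and in Lrp2 it was as well (-1.04, adjusted p = 0.0399), though that was kept only in the omissions of 24 h drug replicate 1 and 72 h drug replicates 1 and 3. Dusp9, an ERK phosphatase, fell from 9.13, 9.43 and 9.51 to 8.01, 8.59 and 8.59 (-0.96, adjusted p = 0.00904) with no difference from DMSO that passed (-0.66, adjusted p = 0.114). Without 24 h drug replicates 2 or 3 its fall was not called (adjusted p up to 0.0543), and under the hybridization control shift its difference passed (-0.8, adjusted p = 0.0298). Nqo1, a quinone reductase and NRF2 target, fell by 1.16 and had 0.75 in DMSO (difference -1.9, adjusted p = 0.0159).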

How the data were processed

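Total RNA of 12 samples (MC38 cells, GDC-0623 or DMSO, 24 h or 72 h, 3 arrays each) was hybridised to Affymetrix mouse 3′ expression arrays. The deposited values are log2 expression levels that the authors made from the scans by RMA (background correction, quantile normalisation and median polish) in Chipster; the version is not given in the sources used here. RMA sets all arrays to 1 distribution (medians 4.63 to 4.7), so a shift of all genes together cannot be seen, and low values are compressed.

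The 64 control probe sets were left out and 45037 tested by limma 3.58.1 in R 4.3.3 as a linear model per probe set with empirical Bayes moderation (two-sided tests, Benjamini-Hochberg adjustment over all of them, adjusted p under 0.05). Each time comparison used its own 6 arrays, and the difference of time changes all 12. Names came from the platform annotation: 34945 probe sets had 1 symbol, 932 several and 9160 none, and 34741 were matched to the current gene table. Each of 18193 genes was read through the single-symbol probe set with the highest mean over the 12 arrays. The fits were tested on simulated data first. Lower bounds set group means under 5 to 5. Promoters were from RefSeq (GRCm38.p6).

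Members, gene lists and tests were chosen with earlier results of these data known. Genes named were drawn from the 15 largest rises and 15 largest falls under the drug (called, arrays not overlapping, mean at least 6 in the higher group). They were also drawn from the 5 largest differences and the 5 largest changes in DMSO each way. Up to 4 members of each list with the largest change, and a set list of ERK, interferon and matrix genes, were added. Not all genes so selected are named in the results. Those left out include the falls Whrn, Pik3cb, Lactb, Tatdn2 and Vgf, the DMSO fall Id3, and Map2k2, Phlda1 and Hmga2 of the set list. The other genes named (Erbb3, Socs1, Stat2, Il6, Il15, Bgn, Cth and further members of the lists) were chosen after their values were seen.

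The titles number the replicates and do not state a pairing. Same-numbered arrays of 24 h and 72 h deviated together from their group means, with correlations of 0.555, 0.238 and 0.405 under the drug and 0.307, 0.389 and 0.225 in DMSO. Between the drug and DMSO at equal times these were 0.125 to 0.375. Differently numbered arrays of 24 h and 72 h had correlations of -0.467 to 0.216 under the drug and -0.342 to 0.013 in DMSO. A fit with the number as a block was therefore an alternative, beside a fit over 12 arrays, a filter on dim probe sets (value of 5 on 3 arrays), repeated quantile normalisation, a shift by hybridization controls, a trended robust prior, array weights, a 2-fold minimum, the mean of a gene's probe sets, and leaving out each array.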

Additional observations from a re-analysis of the deposited data

Results flagged for a closer look

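These genes had the largest differences in RMA values between the time change under GDC-0623 and that in DMSO, each past the test of the difference itself (limma, adjusted p under 0.05, 3 arrays a group). Ifi27l2a (difference 5.12), Apod (4.53), Aspn (4.29), Zbp1 (4.1) and Oas1a (3.76) rose by more under the drug, and each kept that call without every 1 of the 12 arrays. Ifi27l2a and Aspn had means of 3.46 and 3.52 at 24 h under the drug and under 5 in DMSO, in the background range, and with means under 5 set to 5 their differences were 4.02 and 3.14.

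In the other direction, Nqo1 had a difference of -1.9, since it fell by 1.16 under the drug and had 0.75 in DMSO. Cd300lb, which encodes a receptor of myeloid cells, had -2.72. Both of its drug means (4.75 and 3.38) were in the background range, so that no size is given for its change under the drug, and with means under 5 set to 5 the difference was -1.35, its rise in DMSO from 5.23 to 6.58. Car6, a secreted carbonic anhydrase, had a difference of -2.18, with a change of 0.44 under the drug that was not called and a rise of 2.62 in DMSO. Avil, which encodes the actin-binding protein advillin, had -1.9 and rose by 1.76 in DMSO. Cxadr, a cell adhesion protein and virus receptor, had -1.91 and rose by 1.77 in DMSO, and it lost its call without 72 h DMSO replicate 2 or 24 h drug replicates 2 or 3 (adjusted p up to 0.0566).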

How the results depend on the processing

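The rises under GDC-0623 kept their count within 1.5 times under the alternatives tried, except for the 2-fold minimum (273 genes) and the omission of 1 array (502 to 955, lowest without 24 h drug replicate 2). The falls moved more: 565 as reported, 1019 without dim probe sets, 1597 in the fit over 12 arrays, 1621 under the hybridization control shift, 923 with the replicate block, 971 with the trended robust prior, 13 at 2-fold, and 85 to 354 without 1 array. In DMSO the rises numbered 133 at 2-fold and 939 to 1141 without 1 array, and the falls 1665 without dim probe sets, 314 under the hybridization control shift, 1717 with the trended robust prior, 5 at 2-fold and 372 to 654 without 1 array. Of the differences, those upward numbered 142 at 2-fold and 193 to 367 without 1 array, and those downward 466 without dim probe sets, 420 with the trended robust prior, 37 at 2-fold and 159 to 294 without 1 array. Omissions leave fewer arrays, and the dim filter fewer tests; the other causes were not tested. No named gene turned its direction while called. With the replicate block 25 values of named genes gained a call and 297 kept their side, and none lost one; the hybridization control shift gained 17 and lost 8. The trended robust prior took the call from Fos (adjusted p = 0.133), Nqo1 and Cxadr. With the mean of a gene's probe sets Id2, Lif, Pdgfra, Egfr, Acta2 and Ddx21 were among 12 values that lost it. Signals under about 5 limit what could be seen for Ifnb1, Cdh1 and the other genes in that range.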
